A study of Mus musculus with 8 samples.

Results

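Etv1, Etv4 and Etv5 form the PEA3 group of ETS transcription factors, and they were measured with 5 probe sets on 8 mouse gene arrays of pigment-lineage cells sorted from skin. Etv5 was 5.64-fold lower in melanocyte stem cells of B-raf and C-raf knockout mice than in those of wild-type mice, Etv1 was 1.68-fold lower, and Etv4 read near the floor of the arrays in every group. These folds are from the brighter probe set of each gene, and the second probe sets gave 2.25-fold for Etv5 and 3.72-fold for Etv1, which turns the order of the pair. The second Etv1 probe set read 2.57 and 3.02, near the floor, on knockout replicates 3 and 4, against 5.10 and 5.15 on replicates 1 and 2. Between wild-type cells of 21 and 4 days none of the 3 genes passed the test. The members were named as a family, by their symbol in the platform annotation, and each gene is represented by its brightest probe set, judged by the mean of the 8 arrays. They are 3 of 22180 genes and were chosen with the knockout difference already known, so that difference is a description here, with no test.

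The groups are P21_KO (4 arrays), P21_WT (2 arrays) and P4_WT (2 arrays). P21_KO cells came from mice aged 21 days with floxed alleles of both kinases, B-raf fl/fl together with C-raf fl/fl, and the labels call them a melanocyte stem cell population. P21_WT cells, of the same labelled population, came from mice aged 21 days, and P4_WT cells, labelled melanoblasts, the precursors of pigment cells, from mice aged 4 days. Both wild-type groups were B-raf +/+ and C-raf +/+. All 3 groups carried TyrCre/°, the Tyr::Cre transgene, in which the tyrosinase promoter drives Cre recombinase, and Z/EG, a reporter that makes green fluorescent protein after recombination. Cells were sorted as fluorescent and without p75 at the surface, then their RNA was amplified as complementary DNA. Fluorescence marks recombination of the reporter, and the share of sorted cells in which the floxed alleles were also recombined was not measured here. The background was mixed, and the floxed mice came from 129/Sv while the Cre and reporter lines came from C57Bl/6, per the labels' protocols. Replicates 2, 3 and 4 of P21_KO carry the same unexplained number in their labels, and these 3 of the 4 arrays may not be independent. SEs and p-values measure only the spread between the arrays.

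ETS factors share a DNA-binding domain that recognises sites with the core GGAA. Transcription of the PEA3 group is induced when receptor tyrosine kinases signal through RAS, RAF, MEK and ERK. The Capicua repressor (Cic), which ERK signalling releases from DNA, holds the same genes down when the pathway is quiet, and the COP1 ubiquitin ligase marks the proteins for degradation. In human melanoma ETV1 has been described as an oncogene that acts together with MITF, the master regulator of pigment cells. The floxed genes encode kinases of the RAF step.

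The start-site windows of Etv5 and Etv1 are shown because they are where short sites for ETS factors and for Capicua could lie beside the start. The sequences are RefSeq's, on build GRCm38.p6, and each window runs from 250 bases before to 50 after an annotated transcription start. Windows were matched for 2 of the 3 members, with 2 starts each. They are printed 5′ to 3′ on the strand of the gene. Capitals mark GGAAGT, an extended ETS core, and TGAATG, the stretch shared by the Capicua octamers TGAATGAA and TGAATGGA, on either strand.
Etv5, downstream start, chr16:22438319-22438618, minus strand: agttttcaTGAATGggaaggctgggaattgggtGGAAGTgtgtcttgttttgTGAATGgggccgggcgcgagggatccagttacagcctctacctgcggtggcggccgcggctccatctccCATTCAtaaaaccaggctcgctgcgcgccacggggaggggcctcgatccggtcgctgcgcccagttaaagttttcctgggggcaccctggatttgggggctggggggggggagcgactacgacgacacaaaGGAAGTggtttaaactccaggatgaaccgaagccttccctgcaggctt
Etv5, upstream start, chr16:22439521-22439820, minus strand: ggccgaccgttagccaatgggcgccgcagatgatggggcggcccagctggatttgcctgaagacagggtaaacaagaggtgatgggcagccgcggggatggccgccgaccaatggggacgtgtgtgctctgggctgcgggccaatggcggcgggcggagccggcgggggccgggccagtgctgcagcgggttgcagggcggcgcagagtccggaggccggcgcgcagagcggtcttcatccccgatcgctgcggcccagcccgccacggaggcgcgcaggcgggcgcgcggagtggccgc
Etv1, upstream start, chr12:38779832-38780131, plus strand: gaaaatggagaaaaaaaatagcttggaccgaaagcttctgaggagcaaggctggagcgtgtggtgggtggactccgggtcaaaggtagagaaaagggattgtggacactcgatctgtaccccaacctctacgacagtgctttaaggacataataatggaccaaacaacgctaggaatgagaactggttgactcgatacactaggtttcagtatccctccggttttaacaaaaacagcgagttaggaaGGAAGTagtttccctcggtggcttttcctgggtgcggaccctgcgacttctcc

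The downstream Etv5 window held TGAATG 3 times, the last of them as its reverse complement CATTCA, and GGAAGT 2 times. The upstream Etv5 window held neither. The upstream Etv1 window held GGAAGT 1 time, and the downstream Etv1 window (chr12:38783461-38783760, plus strand) held neither. Over all 32851 windows of this length, searched on both strands, 12.7% held TGAATG and 0.17% held it at least 3 times, while 23.8% held GGAAGT and 4.18% held it at least 2 times. The 4 full Capicua octamers TGAATGAA, TGAATGGA, TCAATGAA and TCAATGGA were in none of the member windows and at least 1 of them was in 3.84% of all windows. The longer ETS site CCGGAAGT was in none of the member windows and in 3.89% of all. These are matches of letters, no binding was measured, and TGAATG was added to the search after the sequences had been seen.

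The deposited values were on a log2 scale from 0.91 to 12.19, with array medians between 3.16 and 3.27 over all probe sets. Braf read 6.57, 6.49, 6.30 and 5.66 on P21_KO replicates 1 to 4, against 5.99 and 7.20 on P21_WT replicates 1 and 2. These groups overlapped, and since it is not known here whether the probes read the floxed part, Braf checks the labels little. The mean of 8 melanocyte markers (Dct, Tyr, Tyrp1, Pmel, Mlana, Mitf, Sox10 and Kit) was 7.05 to 8.56 on the P21_KO arrays, against 8.85 and 9.10 in P21_WT and 9.69 and 9.70 in P4_WT. P4_WT replicate 2 stood apart in markers of other cells, with a mean of 6.11 for 6 endothelial, 5.43 for 7 immune and 5.25 for 5 mast cell markers, against at most 3.83, 3.70 and 2.45 on the other arrays. The mean of 7 keratinocyte markers lay between 6.62 and 8.10 on the 8 arrays.

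Etv5, known as ERM, had the widest range of the 3 genes on the brighter probe sets. It lies on chromosome 16 (22381313 to 22439570, GRCm38.p6). It read 5.94, 4.81, 4.98 and 5.06 on P21_KO replicates 1 to 4, against 8.10 and 7.29 on P21_WT replicates 1 and 2 and 8.55 and 7.96 on P4_WT replicates 1 and 2. The 4 knockout arrays lay below the 4 wild-type arrays, with replicate 1 the highest knockout, while the P21_WT and P4_WT values overlapped. Group means were 5.20 ± 0.51 (SD, n = 4) in P21_KO, 7.69 ± 0.57 (SD, n = 2) for P21_WT cells and 8.26 ± 0.42 (SD, n = 2) in P4_WT. In the order P21_KO, P21_WT, P4_WT, the last 2 neighbours did not differ beyond their spread.

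A second, dimmer Etv5 probe set gave the same order of means with another spread. It read 4.56, 3.96, 3.26 and 5.34 on P21_KO replicates 1 to 4, against 5.81 and 5.09 on P21_WT replicates 1 and 2 and 6.54 and 7.15 on P4_WT replicates 1 and 2. Here P21_KO replicate 4 was above P21_WT replicate 2, so those groups overlapped, while both P4_WT arrays lay above all P21 arrays. The first probe set minus the second was -0.27 on P21_KO replicate 4 and 0.86 to 1.72 on the other knockout arrays, against 2.29 and 2.20 in P21_WT and 2.01 and 0.80 in P4_WT. P21_KO replicate 4 was the 1 array on which the second probe set read above the first.

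Etv1, known as ER81, lies on chromosome 12 (38780082 to 38870483) and had a smaller range on its brighter probe set. It read 5.37, 5.51, 4.87 and 5.57 on P21_KO replicates 1 to 4, against 6.10 and 6.05 on P21_WT replicates 1 and 2 and 6.33 and 6.24 on P4_WT replicates 1 and 2. The 3 groups did not overlap, in the order P21_KO, P21_WT, P4_WT, with the wild-type groups close together. Means were 5.33 ± 0.32 (SD, n = 4) in P21_KO, 6.08 ± 0.04 (SD, n = 2) for P21_WT cells and 6.28 ± 0.06 (SD, n = 2) in P4_WT.

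The second Etv1 probe set split the knockout arrays. It read 5.10, 5.15, 2.57 and 3.02 on P21_KO replicates 1 to 4, against 5.79 and 5.93 on P21_WT replicates 1 and 2 and 6.55 and 5.79 on P4_WT replicates 1 and 2. Replicates 3 and 4 of P21_KO read below the medians of their arrays, near the floor where RMA compresses differences. The SD over P21_KO was 1.36 on this probe set and 0.32 on the first. The first probe set minus the second was 2.30 and 2.55 on P21_KO replicates 3 and 4, and between -0.22 and 0.44 on the other 6 arrays. Which transcripts each probe set reads is not known here.

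Etv4, the gene that gave the PEA3 group its name, lies on chromosome 11 (101769747 to 101785310) and read below the array median on all 8 arrays. It read 2.75, 2.73, 2.53 and 2.87 on P21_KO replicates 1 to 4, against 2.96 and 2.91 on P21_WT replicates 1 and 2 and 3.03 and 2.91 on P4_WT replicates 1 and 2. The P21_KO values lay below those of P21_WT, and the wild-type groups overlapped. The range over all arrays was 0.50 log2 units for Etv4, against 3.74 for Etv5 and 1.46 for Etv1 on their brighter probe sets, and differences this close to the floor are not well measured.

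**Figure D1:**
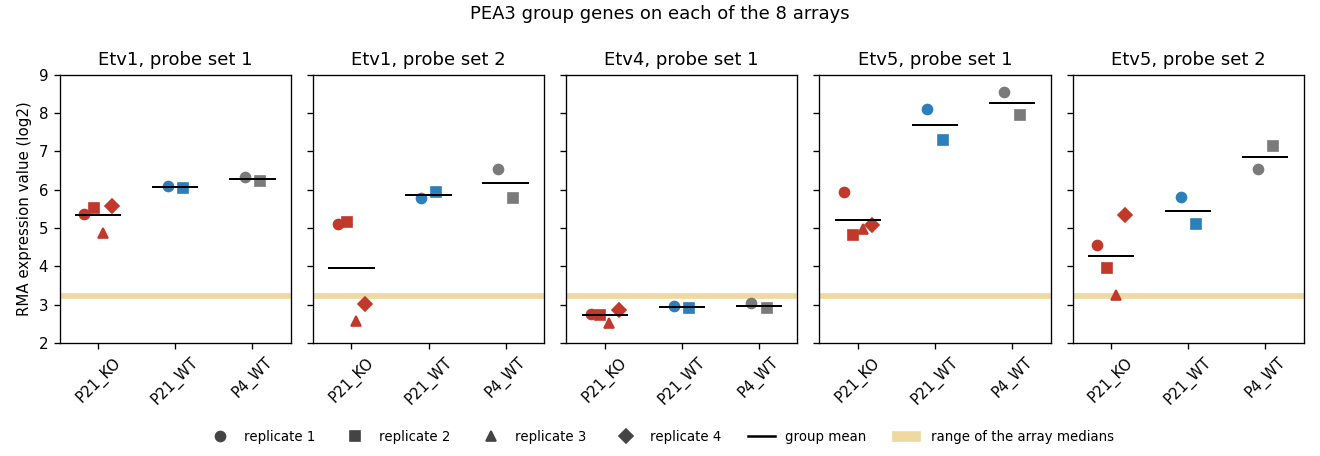
RMA expression value (log2) of each probe set of Etv1, Etv4 and Etv5 on each array, by group; marker shapes give the replicate, black lines the group mean, and the band the range of the array medians. The first Etv5 probe set lies between 4.81 and 5.94 on the P21_KO arrays, below the wild-type arrays, the second Etv1 probe set splits the P21_KO arrays, and Etv4 lies under the band.

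The genotype comparison sets P21_KO against P21_WT, cells of mice floxed for both kinases against those of wild-type mice of the same age. Loss of the kinases in the sorted cells was not measured here. Etv5 differed by -2.50 ± 0.36 (SE), and 5 of the 22180 genes had a difference further below 0. Etv1 differed by -0.75 ± 0.21 (SE), with 468 genes (2.11%) further below. Etv4 differed by -0.21 ± 0.15 (SE), with 19.2% of genes further below. On their brightest probe sets all 3 members were lower in P21_KO with no overlap of the arrays, where 7.64% of all genes were. Since this contrast was known when the members were chosen, nothing is read from that count. On the second Etv5 probe set the P21_KO and P21_WT arrays overlapped.

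The choice of probe set moved these sizes. On the second probe sets Etv1 differed by -1.90 ± 0.74 (SE) and Etv5 by -1.17 ± 0.52 (SE). With the probe sets of each gene averaged, the differences were -1.32 ± 0.43 (SE) for Etv1 and -1.83 ± 0.36 (SE) for Etv5. On the second probe sets alone Etv1 thus had the wider difference, the opposite order to the first. That Etv1 difference came with a split of the knockout arrays. P21_KO replicates 3 and 4 read 2.57 and 3.02, below their array medians, against 5.10 and 5.15 on replicates 1 and 2. Leaving out 1 array at a time, the Etv5 difference lay between -2.90 and -2.09, the Etv1 difference between -0.83 and -0.60 and the Etv4 difference between -0.26 and -0.15.

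Pigment-cell markers were also lower on the knockout arrays. Of the 8 melanocyte markers 7 were lower in P21_KO, 6 of them with no overlap of the arrays, where 7.64% of all genes were, and the list's median was -1.03. Tyr, the rate-limiting enzyme of melanin synthesis, differed by -1.91 ± 0.35 (SE) and Sox10, a transcription factor of the lineage, by 0.07 ± 0.18 (SE). All 7 measured keratinocyte markers were also lower in P21_KO, with a median of -0.44, 2 of them with no overlap of the arrays. The medians of the other marker lists lay between -0.10 (endothelial) and 0.11 (neuron). The part of these markers in the Etv differences was not tested, and in bulk samples fewer cells of a type and less RNA per cell cannot be told apart.

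Limma called 0 of 22180 genes (0%) in the genotype comparison at a Benjamini-Hochberg adjusted p under 0.05. The count was also 0 with array weights, with a trended and robust prior and after cyclic loess normalization, and 1447 genes (6.52%) had an unadjusted p under 0.05. It was 15 without P21_WT replicate 2, 2 without P21_WT replicate 1 and 1 without P21_KO replicate 1.

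The age comparison sets P21_WT against P4_WT and addresses the step between melanoblast and melanocyte stem cell, using the same P21_WT arrays. Etv5 differed by -0.56 ± 0.42 (SE; limma adjusted p = 0.686), Etv1 by -0.21 ± 0.24 (SE; limma adjusted p = 0.836) and Etv4 by -0.04 ± 0.17 (SE; limma adjusted p = 0.971). None of the 3 members passed the threshold, where 357 of 22180 genes (1.61%) did, 0.757% higher and 0.852% lower in P21_WT. On the brightest probe sets Etv1 was the 1 member whose arrays did not overlap, and 22.1% of all genes likewise had P21_WT below P4_WT. The second Etv5 probe set had the widest age difference of the 5 probe sets, -1.40 ± 0.60 (SE; limma adjusted p = 0.384 over all probe sets with 1 symbol). The second Etv1 probe set differed by -0.31 ± 0.85 (SE; limma adjusted p = 0.947).

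The size of the Etv5 age difference depended on single arrays. It was -0.96 without P21_WT replicate 1, -0.16 without P21_WT replicate 2, -0.86 without P4_WT replicate 2 and -0.26 without P4_WT replicate 1. Etv1 moved less, between -0.25 and -0.16, and Etv4 lay between -0.10 and 0.02. Markers of other cells also differed with age. Of 8 measured Schwann cell and glial markers 7 were higher in P21_WT, and Fabp7 differed the other way, by -1.22 ± 0.54 (SE). Of the 8, 2 were called higher, where 0.757% of all genes were. These were Mal, by 2.06 (limma adjusted p = 0.00471), and Mbp, by 1.26 (limma adjusted p = 0.033), both proteins of myelin. The mean of the 8 markers was 7.66 and 7.76 in P21_WT, against 7.25 and 7.12 in P4_WT. Of 7 keratinocyte markers 6 were higher in P21_WT with no overlap of the arrays, where 21.4% of all genes were, and 0 were called. Their mean was 8.08 and 7.93 in P21_WT, against 7.55 and 6.62 in P4_WT. The part of these markers, and of the endothelial, immune and mast cell markers of P4_WT replicate 2, in the Etv values was not tested.

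P21_KO and P4_WT differ in both age and genotype. P21_KO minus P4_WT was -3.06 ± 0.36 (SE) for Etv5, -0.95 ± 0.21 (SE) for Etv1 and -0.25 ± 0.15 (SE) for Etv4. The P21_KO arrays lay below both P4_WT arrays for all 3, as they did for 15.5% of all genes, and no test was made.

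**Figure D2:**
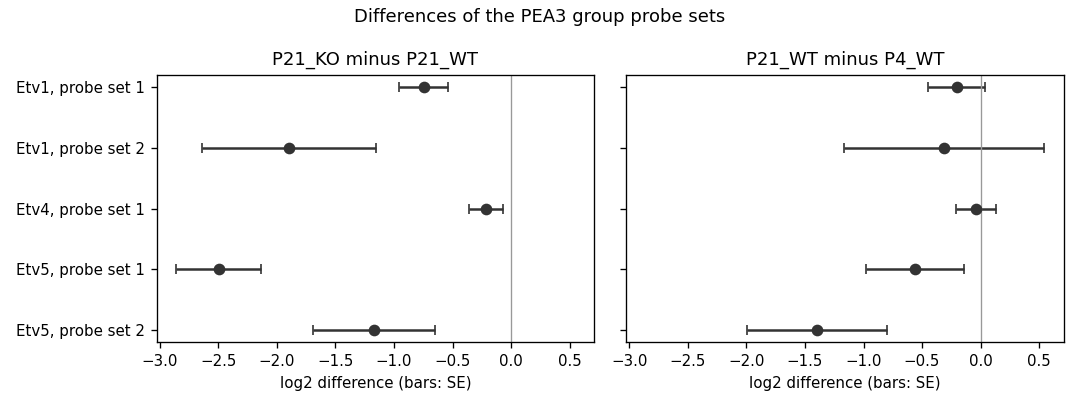
Log2 differences of the 5 probe sets (points) with their SE (bars), for P21_KO minus P21_WT on the left and P21_WT minus P4_WT on the right. In the left panel the first Etv5 probe set lies at -2.50 and Etv4 at -0.21, and in the right panel the bars of Etv4 and of both Etv1 probe sets cross 0.

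The rest of the pathway was described through 6 lists, chosen from knowledge of the pathway with earlier results of these data known. Their counts are therefore a description, like those of the members, and nothing is read from them. In the genotype comparison 0 members of any of them passed limma's threshold, as did 0 of all 22180 genes. Their values are therefore given without a verb of change. Receptors and ligands that feed ERK had 13 of 20 members lower in P21_KO, with a median of -0.10 against 0.01 over all genes, and 4 of the 20 were lower with no overlap of the arrays, where 7.64% of all genes were. Met, the receptor of hepatocyte growth factor, read 4.59, 4.94, 3.49 and 3.39 on P21_KO replicates 1 to 4, against 6.56 and 6.38 on P21_WT replicates 1 and 2 and 8.09 and 8.09 in P4_WT. The 3 groups did not overlap, and Met differed by -2.37 ± 0.43 (SE; limma adjusted p = 0.329) between P21_KO and P21_WT, next after Etv5 in size. Fgfr2, a fibroblast growth factor receptor, differed by -1.03 ± 0.40 (SE) and Gdnf, the ligand of the RET receptor system, by -0.76 ± 0.28 (SE), with limma adjusted p of 0.733 and 0.708. The Gdnf arrays overlapped, and its difference was -1.13 without P21_WT replicate 1 and -0.38 without P21_WT replicate 2. Gdnf read below the array median, near the floor, on every array but P21_WT replicate 2, where it read 3.73.

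By age 0 of the 20 receptors and ligands were called, where 1.61% of all genes were, 11 were lower in P21_WT and the median was -0.06. Met differed by -1.62 ± 0.49 (SE; limma adjusted p = 0.186), Gdnf by 1.06 ± 0.32 (SE; limma adjusted p = 0.185) and Fgfr1 by 0.53 ± 0.18 (SE; limma adjusted p = 0.253). Without P21_WT replicate 2 the Gdnf value was 0.68. The means of Met and Etv5 had the same order, P21_KO, P21_WT, P4_WT, while the wild-type arrays overlapped for Etv5 and not for Met.

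Of the RAS, RAF, MEK and ERK genes 13 of 19 were measured. In P21_KO 7 were lower and 6 higher than in P21_WT, with a median of -0.04. Araf, the RAF kinase that was not floxed, read 6.84, 6.80, 6.66 and 7.08 on P21_KO replicates 1 to 4, against 6.47 and 6.42 in P21_WT, and was the 1 gene of the list higher with no overlap, as 7.75% of all genes were. It differed by 0.40 ± 0.21 (SE; limma adjusted p = 0.832). Rasa1, a brake on RAS, differed by -0.37 and Sos1, which activates RAS, by -0.32. Without P21_WT replicate 2 these were -0.23 for Rasa1 and 0.00373 for Sos1, and without P21_WT replicate 1 the Sos1 value was -0.65. By age the median was -0.01 and 0 were called, where 1.61% of all genes were. Map2k1, the gene of the kinase MEK1, differed by -0.92 ± 0.20 (SE; limma adjusted p = 0.0665), Ptpn11, the phosphatase SHP2, by -0.74 and Nf1, a brake on RAS, by 0.35. Without P4_WT replicate 2 the Ptpn11 value was -0.43, and without P4_WT replicate 1 the Nf1 value was 0.22.

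Of the genes that hold the PEA3 group down 0 were called in either comparison, where 0% of all genes were by genotype and 1.61% by age. Of the 10 measured, 7 were higher in P21_KO, with a median of 0.18, and 0 had arrays that did not overlap. Of all genes 7.64% were lower and 7.75% higher in P21_KO with no overlap. Cic, the gene of Capicua, read 6.95, 6.56, 6.30 and 6.17 on P21_KO replicates 1 to 4, against 6.37 and 6.23 in P21_WT and 6.22 and 5.86 in P4_WT. It differed by 0.19 ± 0.23 (SE; limma adjusted p = 0.957). Atxn1, whose protein binds Capicua, differed by 0.92 ± 0.35 (SE; limma adjusted p = 0.712), Cop1, the ligase, by 0.24 and Det1, a partner of the ligase, by -0.43. These values depended on single arrays. Without P21_WT replicate 1 they were 0.25 for Atxn1, 0.09 for Cop1 and 0.00478 for Det1, without P21_WT replicate 2 they were 1.60, 0.40 and -0.87, and Cic lay between 0.04 and 0.30 with 1 array left out. By age the median was -0.22, with Atxn1 at 0.72, Ddb1 at -0.26 and Cul4a at -0.40, the last 2 being parts of the ligase complex. With 1 array left out the age values ranged from 0.04 to 1.40 for Atxn1, from -0.40 to -0.13 for Ddb1 and from -0.69 to -0.11 for Cul4a, the ends in each case without 1 or the other P21_WT array.

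Of 22 other ETS factors 12 were lower and 10 higher in P21_KO, with a median of -0.02, and 5 were lower with no overlap of the arrays, where 7.64% of all genes were. Elk3, an ETS factor of the ternary complex group that ERK phosphorylates, read 5.11, 5.00, 4.87 and 4.82 on P21_KO replicates 1 to 4, against 5.61 and 6.14 on P21_WT replicates 1 and 2 and 6.72 and 7.46 on P4_WT replicates 1 and 2. Its 3 groups did not overlap, in the same order as those of Etv1. Elk3 differed by -0.92 ± 0.24 (SE; limma adjusted p = 0.565) with genotype and by -1.22 ± 0.28 (SE; limma adjusted p = 0.0806) with age. Etv6, an ETS repressor, differed by -0.57 and Ets1 by -0.45 with genotype. By age 16 of the 22 were lower in P21_WT, with a median of -0.12, and 0 were called, where 1.61% of all genes were. Ets2 differed by -0.73 with age and Spi1, a factor of myeloid cells, by -0.52. The Ets2 difference was -0.23 without P21_WT replicate 1 and -1.23 without P21_WT replicate 2. The Spi1 difference was -1.07 without P4_WT replicate 1 and 0.04 without P4_WT replicate 2, the array with the higher immune markers.

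ERK target and feedback genes, which ERK switches on as it does the PEA3 group, had 14 of 19 members lower in P21_KO. The other 5 were higher, and the median was -0.13. Among the higher ones, singled out after the values were seen, Dusp5 differed by 0.49 ± 0.24 (SE), Egr1 by 0.48 ± 0.26 (SE) and Myc by 0.30 ± 0.22 (SE). The P21_KO and P21_WT arrays overlapped for each of these genes. Spry4, a Sprouty inhibitor of receptor signalling, read 2.74, 2.53, 3.22 and 3.00 on P21_KO replicates 1 to 4, against 3.81 and 4.32 on P21_WT replicates 1 and 2 and 4.30 and 5.87 on P4_WT replicates 1 and 2. It differed by -1.19 ± 0.40 (SE; limma adjusted p = 0.656), and all P21_KO values lay below those of P21_WT. The P21_KO values also lay below the array medians, near the floor. Phlda1, used as a readout of ERK activity, differed by -0.43 ± 0.14 (SE) and Spred2, an inhibitor of RAF activation, by -0.49 ± 0.24 (SE), or -0.32 without P21_WT replicate 2. Dusp6, a phosphatase that switches ERK off and which was singled out after its values were seen, read 9.45, 9.04, 9.52 and 9.25 on P21_KO replicates 1 to 4, against 9.55 and 9.28 in P21_WT. Those groups overlapped, with a difference of -0.10 ± 0.18 (SE). Of the 19 genes 3 were lower with no overlap of the arrays, where 7.64% of all genes were.

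By age 1 of the 19 ERK targets passed the threshold, where 1.61% of all genes did. Plaur, the urokinase receptor, fell by 1.88 ± 0.33 (SE; limma adjusted p = 0.0354) in P21_WT. It read 2.83 and 2.91 on P21_WT replicates 1 and 2, below the array medians, against 4.16 and 5.34 on P4_WT replicates 1 and 2. The call was lost without either P21_WT array or any 1 of the P21_KO arrays, with a limma adjusted p of up to 0.164. The difference was -1.29 without P4_WT replicate 2, the array with the higher endothelial, immune and mast cell markers, and -2.47 without P4_WT replicate 1, and the part of those markers in it was not tested. Egr1, an immediate early transcription factor, differed by 1.18 ± 0.30 (SE; limma adjusted p = 0.11) and Ccnd1, the gene of cyclin D1, by -1.40 ± 0.36 (SE; limma adjusted p = 0.124). The Egr1 value was 0.70 without P21_WT replicate 1. The list had 11 members lower and 8 higher in P21_WT, with a median of -0.26.

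Genes reported downstream of PEA3 factors in other tissues had 12 of 17 members lower in P21_KO, with a median of -0.12, and 5 lower with no overlap, where 7.64% of all genes were. Met is among them, and Dusp6 too, so this list shares 2 genes with others. Twist1, a transcription factor of mesenchymal and neural crest cells, read 3.24, 3.08, 3.66 and 2.92 on P21_KO replicates 1 to 4, against 3.93 and 4.02 in P21_WT, and differed by -0.75 ± 0.23 (SE; limma adjusted p = 0.609). Its values on P21_KO replicates 1, 2 and 4 lay below the array medians, near the floor. Icam1, an adhesion molecule, differed by -0.92 ± 0.35 (SE), with its P21_KO values below the array medians, near the floor. The 1 member higher with no overlap, as 7.75% of all genes were, was Ccn1, a matrix protein. Ccn1 differed by 0.76 ± 0.37 (SE; limma adjusted p = 0.81) between P21_KO and P21_WT. By age 0 of 17 were called, where 1.61% of all genes were, and the median was -0.08. Cxcr4, a chemokine receptor, differed by -1.14 ± 0.32 (SE) with age and Ccn1 by 1.16 ± 0.42 (SE). The Cxcr4 value was -0.73 without P4_WT replicate 2.

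**Figure D3:**
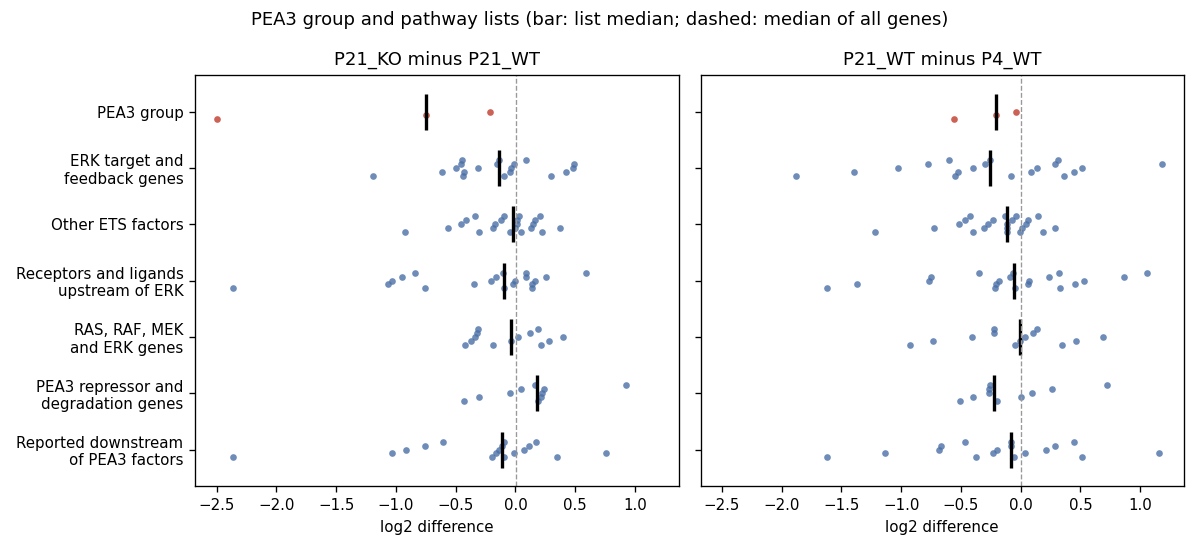
Log2 differences of single genes (points) in the PEA3 group and 6 pathway lists, for P21_KO minus P21_WT on the left and P21_WT minus P4_WT on the right; black bars are list medians and the dashed line is the median of all genes. Etv5 at -2.50 and Met at -2.37, which stands in 2 lists, lie furthest left in the left panel, and the list medians lie between -0.26 and 0.18 outside the PEA3 group.

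Etv5 was the 1 member whose brightest probe set spanned over 2 log2 units, and the genes most like it over the 8 arrays were Syt4, Mlana, Gpr37, Gyg and Ppic. Likeness was the root mean square difference after each gene was centred on its own mean, and these 5 of 22180 genes lay between 0.40 and 0.52 log2 units from Etv5. Syt4, a synaptotagmin of vesicle traffic, was nearest and read 7.28, 6.34, 6.05 and 5.78 on P21_KO replicates 1 to 4, against 9.16 and 9.26 in P21_WT and 9.60 and 9.80 in P4_WT. Mlana, a melanosome protein and a melanocyte marker, read 9.57, 8.00, 7.68 and 7.43 on the same knockout arrays, against 10.20 and 9.80 in P21_WT and 11.32 and 11.14 in P4_WT. P21_KO replicate 1 was the highest knockout array for Etv5 and for each of the 5 genes. As they were chosen for likeness on these arrays, their differences between groups are no further evidence, and their own differences were -2.85 for Syt4, -1.83 for Mlana, -1.97 for Gpr37, -1.52 for Gyg and -1.44 for Ppic between P21_KO and P21_WT.

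**Figure D4:**
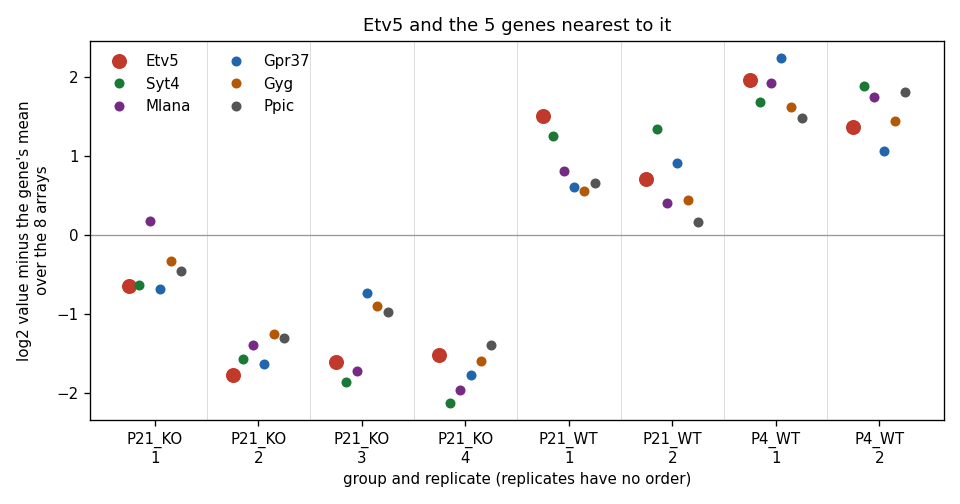
Log2 value minus the gene's mean over the 8 arrays (vertical axis) for Etv5 and the 5 genes nearest to it, on each array (horizontal axis); replicates have no order. The points lie above 0 on the wild-type arrays and below 0 on the P21_KO arrays, except Mlana on P21_KO replicate 1.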

How the data were processed

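Expression was measured on 8 single-colour arrays, grouped by the sample titles. The authors deposited log2 values. The submitters' processing notes name RMA and Affymetrix Expression Console, with version and settings not given in the sources used here. RMA subtracts background, equalises the arrays and compresses low values, so changes of dim genes are understated. The number of arrays limits the precision. Of 41345 rows 23521 had 1 gene symbol in the platform annotation, and the row with the highest mean per gene left 22180 genes, with no filter on dim ones. A linear model with 3 groups was fitted to all genes and 8 arrays with limma 3.58.1 (R 4.3.3; lmFit and eBayes, 5 residual degrees of freedom), and p-values were adjusted by Benjamini-Hochberg. The script was tested on simulated data. Members, lists and tests were chosen with earlier results of these data known. Named genes were the members, Braf, Cic and a gene not reported here, the 3 smallest p per list and comparison, and the 5 genes nearest to a member spanning over 2 log2 units. Of 167 list genes 155 were measured.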

Additional observations from a re-analysis of the deposited data

How the results depend on the processing

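In the 8 fits that each left out 1 array and in the other alternatives, every difference of Etv1, Etv4 and Etv5 kept its sign except the age difference of Etv4, which lay between -0.10 and 0.0186 over the 8 fits. None of the 3 age differences passed the threshold in any alternative. With the probe sets averaged the genotype differences moved to -1.32 for Etv1 and -1.83 for Etv5, and the Etv1 difference from P4_WT to -1.58, since the probe sets disagree. The number of genes called by age, 357, was 49 with the wild-type arrays alone (fewer samples), 45 with the replicate number as a block, 674 at an adjusted p under 0.10 and 119 to 338 with 1 array left out, lowest without P21_WT replicate 2 (119), P21_WT replicate 1 (121) and P21_KO replicate 3 (233). The genotype count of 0 became 0 to 15. The 1 ERK target called by age became 0 with the wild-type arrays alone and with the block, and 0 to 2 with 1 array left out. Leaving out 1 array turned the sign of 4 named values, whose ranges were -1.07 to 0.0375 (Spi1, age), -0.87 to 0.00478 (Det1), -0.65 to 0.00373 (Sos1) and -0.94 to 0.27 (Braf). The cause was not tested. Deviations of same-numbered arrays of different groups had correlations of -0.04 to 0.01, so no pairing by replicate number was seen. In groups of 2 the deviations of both arrays mirror each other, so these few values cannot exclude a pairing. The fit with the replicate block had 2 residual degrees of freedom and drops P21_KO replicates 3 and 4, whose numbers stand alone; it gave -2.32 for the genotype and -0.56 for the age difference of Etv5. Testing every probe set on its own was added after seeing the data.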
